A study of Mus musculus with 6 samples.

Results

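The subunits of respiratory complexes II to V were examined in the gastrocnemius, a calf muscle, of mice whose skeletal muscle lacked TAK1. They were taken as the genes with a symbol of Sdha to Sdhd, Cyc1, or one beginning with Uqcr, Cox4 to Cox8 or Atp5, each measured by a probe set assigned to that gene alone. This rule gave 48 of the 22180 genes on the array: 4 in complex II, 9 in complex III, 17 in complex IV and 18 in complex V. Of these, 46 code for proteins and 2 (Uqcrh-ps1 and Atp5c1-ps) are pseudogenes. The groups were 3 mice with a skeletal muscle-specific TAK1 knockout, whose muscle was taken 3 weeks after deletion, and 3 floxed TAK1 littermates, with 1 array per mouse. The sources used here do not give the driver of the deletion, the exons removed, or the age or sex of the mice, and a muscle-specific deletion leaves TAK1 in the vessels, nerves and connective tissue of the sample.

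The respiratory chain of the inner mitochondrial membrane passes electrons from fuel molecules to oxygen and stores the energy as a proton gradient. Complex II is succinate dehydrogenase, which also works in the citric acid cycle, complex III hands electrons to cytochrome c, complex IV (cytochrome c oxidase) hands them to oxygen, and complex V (ATP synthase) uses the gradient to make ATP. Oxidative muscle fibres are rich in these complexes, and several complex IV subunits exist as a form made in heart and skeletal muscle and a form made in most tissues. The nuclear genes of the subunits are measured here, and the core subunits that the mitochondrial genome encodes were not analysed here.

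Values are log2 levels from which the authors had already removed differences in overall intensity between arrays, and the 6 array medians lay between 5.78 and 5.84. A probe set's level depends on its probes, so levels are compared between arrays and not between genes. All 10 fast fibre and all 10 slow fibre markers lay above 5.85, the 95th percentile of the mean levels of olfactory and vomeronasal receptor genes, which served as a guide to background. Map3k7, which encodes TAK1, had levels of 8.20, 8.28 and 8.17 in knockout muscle, against 8.47, 8.32 and 8.42 in control muscle. Its groups did not overlap, but the log2 difference of −0.19 missed the threshold (limma over all genes, adjusted p = 0.686). A two-sided exact permutation test gave 0.1, the smallest p that 3 arrays against 3 allow.

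The subunits of complexes II to V mostly had slightly higher means in knockout muscle, and no gene passed the test over all genes. Of the 48 genes, 0 passed an adjusted p of 0.05 (limma, Benjamini-Hochberg over all genes; lowest adjusted p = 0.741, for Atp5g3), where 0.0947% of all genes did (0.0406% higher and 0.0541% lower in knockout muscle). At an unadjusted p under 0.05, 0 of the 48 passed as well, where 8.04% of all genes did. The mean was higher in knockout muscle for 40 subunits and lower for 8, against 49.9% higher and 50.1% lower among all genes, and the median log2 fold change was 0.10, against −0.0003 over all genes. The medians of the complexes lay close together, at 0.10 for complex II, 0.10 for complex III, 0.08 for complex IV and 0.11 for complex V. In bulk muscle, fewer cells of a type and less RNA per cell cannot be told apart. Groups did not overlap in 2 of the 48 genes, 1 in each direction, where 13.4% of all genes did so (6.74% higher and 6.65% lower in knockout muscle).

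The precision of the arrays bounds these differences. Among the 41 protein-coding subunits above background, the largest difference was 1.19-fold (Atp5g3), and the 95% interval lay within 1.5-fold in both directions for 39. These bounds hold for the brightest probe set of each gene. A dimmer probe set of Atp5d had a log2 fold change of −0.26, larger in size than the 0.25 of Atp5g3. The highest upper limit was 1.52-fold higher in knockout muscle (Cox7a1), and the farthest lower limit was 1.40-fold lower (Atp5g1). The 7 other genes lay at or below background, where differences are compressed: the pseudogenes Uqcrh-ps1 and Atp5c1-ps, the isoforms Cox6b2, Cox7b2 and Cox8c, which are known from testis, and Cox7c and Atp5j2. These levels are those of the probe sets and do not rank the abundance of the genes.

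**Figure D1:**
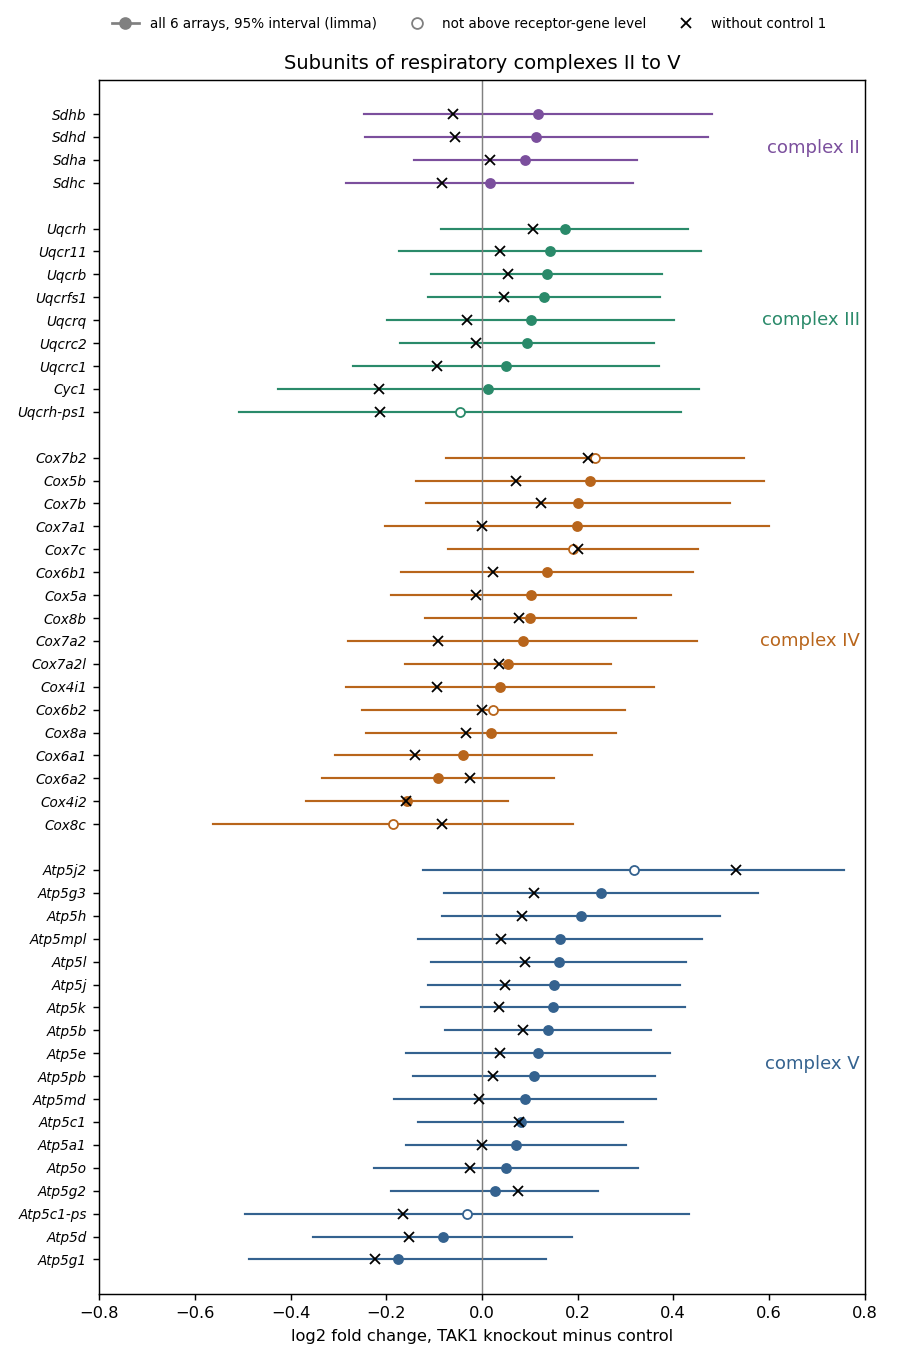
Log2 fold change (knockout minus control) of the 48 subunits by complex, with 95% intervals from limma on all 6 arrays. Every interval spans 0, and crosses give the value without control 1, which has the opposite sign, below 0, for 15 genes.

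The small excess of higher values came with 1 control array. Control 1 held the lowest of the 6 levels for 36 of the 48 subunits (75.0%), against 17.9% of all genes. In these 36 genes its median gap to the next array was 0.20 on the log2 scale, beside a median spread of 0.26 among the other 5 arrays. The gap was smallest for Cox7a2l (0.003) and largest for Cox7a1 (0.44). After subtracting each gene's mean over the arrays, the median subunit level was 0.08, 0.11 and −0.02 in knockouts 1, 2 and 3, against −0.23, 0.09 and −0.02 in controls 1, 2 and 3. The knockout arrays thus spanned nearly the same range as controls 2 and 3, with knockouts 1 and 2 and control 2 close together at the top. Without control 1, 25 subunits were higher in knockout muscle and 23 lower, against 50.2% higher among all genes. Their median log2 fold change was then 0.008. The sign changed in 15 genes, all from higher to lower. Control 1 was the lowest array in each of these, so leaving it out could only lower their fold changes, and the direction is no separate evidence. Without control 1, 0 subunits passed (limma, lowest adjusted p = 0.497, for Atp5j2).

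**Figure D2:**
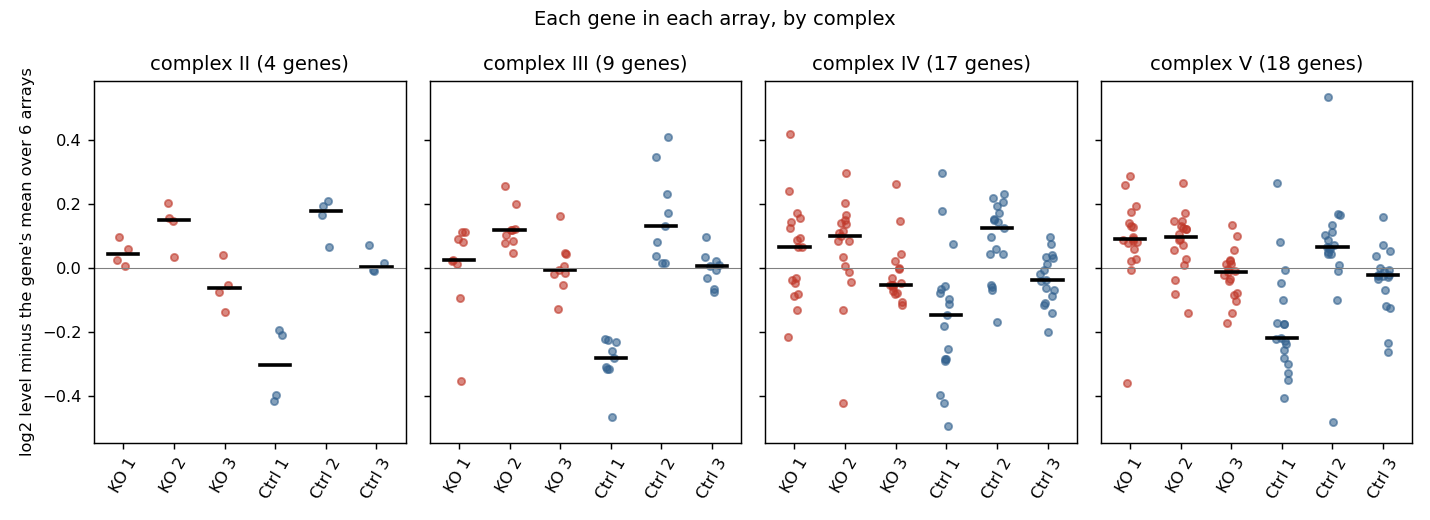
Level of each subunit in each array minus that gene's mean over the 6 arrays (log2), by complex, with knockout arrays in red, control arrays in blue and a bar at the median. The control 1 median lies below those of the other 5 arrays in all 4 complexes.

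Control 1 was low in all 4 complexes. It was the lowest array for 4 of 4 complex II genes and 8 of 9 complex III genes, where the exception was the pseudogene Uqcrh-ps1, and for 11 of 17 complex IV and 13 of 18 complex V genes. Whether these shares differ between complexes was not tested. Without control 1 the median log2 fold change was −0.06 in complex II, −0.01 in complex III, −0.0005 in complex IV and 0.04 in complex V. Without control 2, which lay near the top, the same medians were 0.19, 0.18, 0.16 and 0.17, and without knockout 2 they were 0.06, 0.09, 0.04 and 0.09.

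**Figure D3:**
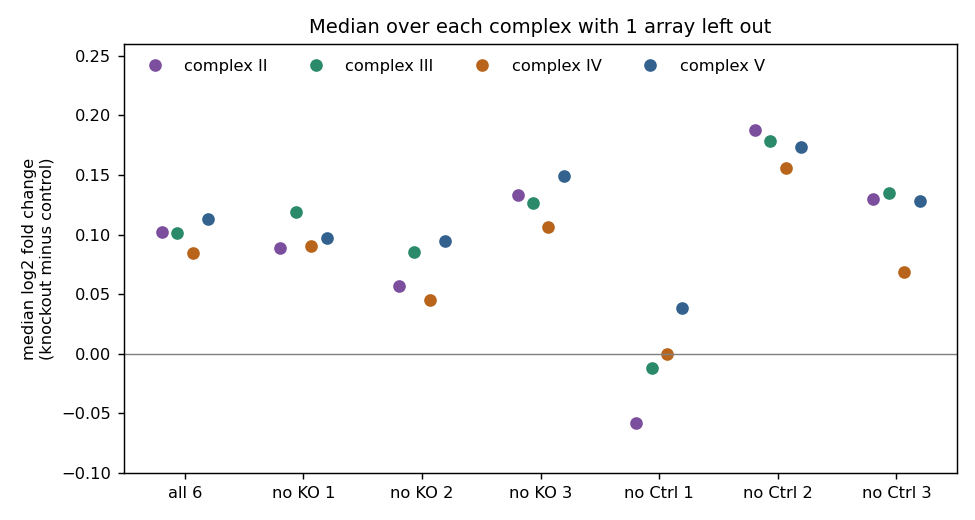
Median log2 fold change (knockout minus control) over the genes of each complex, with all 6 arrays and with 1 array left out in turn. Without control 1 the 4 medians run from −0.06 to 0.04, and without control 2 from 0.16 to 0.19.

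Across the 6 arrays the subunits varied together. Over the 820 pairs of the 41 coding subunits above background, the median Pearson correlation was 0.775, and 83.7% of pairs were above 0. All pairs of the 12601 genes above background had a median of 0.0300. Without control 1 the median over the subunit pairs was 0.524 in 5 arrays. Such correlations describe these arrays, share their normalization and carry no test. Cox7a1 (0.998) and Sdhd (0.993) followed the mean of the other subunits most closely. Cox6a2 (−0.736), Atp5g2 (−0.654), Cox4i2 (−0.206) and Atp5g1 (−0.186) ran against it. Control 1, lowest for most subunits, was the highest array for Cox6a2 and Atp5g2, and for Cox8c, which lay below background.

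Other gene groups were set beside the subunits on the same arrays. Control 1 was the lowest array for 24 of 32 measured complex I subunits (75.0%), whose median log2 fold change was 0.09 with all arrays and −0.004 without control 1. Of 35 measured assembly factors of complexes II to V, 20 were lowest there. Of 6 endothelial markers, 5 were lowest in control 1, with array medians of 0.02, 0.03 and 0.01 in knockouts and −0.18, 0.06 and 0.13 in controls. Slow fibre markers, which mark only slow oxidative fibres, had medians of −0.27, 0.24 and 0.20 in knockouts, against −0.23, 0.56 and −0.51 in controls. Their lowest array was control 3, whose respiratory subunits lay near their mean. Fast fibre markers had medians between −0.07 and 0.06 on all 6 arrays. The knockout mean was lower for 9 of 10 (median log2 fold change −0.04), against 50.1% of all genes. An unadjusted p under 0.05 was reached by 2 of the 10, against 8.04% of all genes, and 0 were called (limma, lowest adjusted p = 0.221). Their groups did not overlap in 3 of 10, all lower in knockout muscle, against 6.65% of all genes. They were Myh1 (−0.49), a fast myosin heavy chain, Mylpf (−0.46), a fast myosin light chain, and Tnnc2 (−0.20), fast troponin C. These 3 are named after their values were seen. Macrophage markers lay at 0.31, −0.09 and −0.18 in knockouts and at 0.24, −0.12 and −0.19 in controls, so control 1 was the highest control for them. All 10 tendon cell markers had lower knockout means (median log2 fold change −0.60, 0 called), with array medians of 0.07, −0.30 and −0.95 in knockouts, against −0.06, 0.63 and 0.34 in controls. An unadjusted p under 0.05 (limma) was reached by 5 of the 10, against 8.04% of all genes. Groups did not overlap in 1 of the 10, Fmod (−0.93), against 6.65% of all genes lower in knockout muscle. Of 7 adipocyte markers, 6 had lower knockout means (median −0.23), with 0 called. Of 3 brown adipocyte markers, Cidea alone lay above background (log2 fold change 0.32, overlapping groups), and Elovl3 (0.26) and Ucp1 (0.004) lay below it, with 0 called. The groups of Elovl3 did not overlap (limma, unadjusted p = 0.045). Among all genes, 6.74% did not overlap with higher knockout values, and 8.04% had an unadjusted p under 0.05. The part of these cell types in the control 1 levels was not tested.

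**Figure D4:**
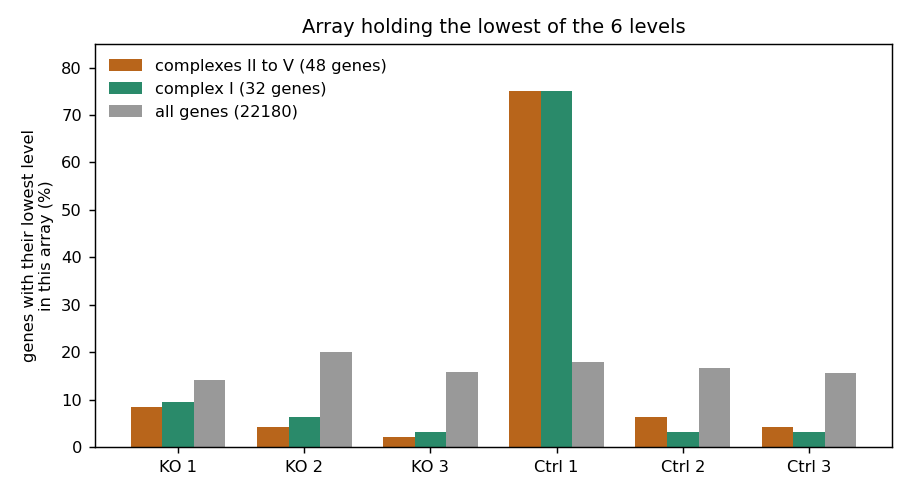
Share of genes (percent) whose lowest of 6 levels fell in each array, for complexes II to V, complex I and all genes. Control 1 holds 75.0% of the genes in both groups of complexes and 17.9% of all genes, and the next highest share is 20.0%, of all genes in knockout 2.

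The promoters of the subunits were searched for motifs of factors known to act on respiratory genes. Whether these motifs bear on the shared variation of the subunits was not tested. RefSeq promoter windows (GRCm38.p6, 250 bases before and 50 after an annotated start) were found for 35 of the 48 genes, and both strands were searched for exact letters. The 13 genes without a window include Cox6a2, Cox4i1, Cox4i2 and Cyc1. The motif of nuclear respiratory factor NRF1 (GCGCA and GCGC with any 1 base between) lay in 10 of the 35 genes (28.6%), against 5.19% of 27025 genes with a window. The core of GABP, also called NRF2 (CCGGAAG), lay in 13 (37.1%, against 9.93%). The estrogen-related receptor motif (TCAAGGTCA) lay in Sdhd and Atp5g3 alone (5.71%, against 0.466%), that of YY1 (AAGATGGC) in 3 (8.57%, against 3.19%) and that of MEF2 (CTA and TAG with any 4 bases between) in Cox5b alone (2.86%, against 4.23%). Motifs were counted separately and may lie beside each other, as in Sdhd, which held those of NRF1, GABP and the estrogen-related receptors. The windows of the 35 genes and of all genes were not matched for base content. A match is a description of the letters and not evidence of binding. The stretches below, from upstream of the annotated start and on the strand of the gene, are examples from genes named in the results, with 1 motif in capitals on either strand.
Sdha, NRF1, chr13:74350304-74350363 (− strand): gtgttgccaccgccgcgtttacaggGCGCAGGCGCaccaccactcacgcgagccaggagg
Sdhd, NRF1, chr9:50603894-50603953 (− strand): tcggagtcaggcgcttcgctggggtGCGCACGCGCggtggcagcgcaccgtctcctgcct
Uqcr11, GABP, chr10:80406856-80406912 (− strand): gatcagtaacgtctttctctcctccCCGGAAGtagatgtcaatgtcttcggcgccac
Cox6b1, GABP, chr7:30626115-30626167 (− strand): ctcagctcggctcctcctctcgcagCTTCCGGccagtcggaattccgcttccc
Atp5h, NRF1, chr11:115420026-115420085 (− strand): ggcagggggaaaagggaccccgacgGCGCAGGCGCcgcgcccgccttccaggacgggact
Atp5k, NRF1, chr5:108434415-108434474 (− strand): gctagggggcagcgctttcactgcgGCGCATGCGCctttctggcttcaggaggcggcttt
Atp5g3, estrogen-related receptor, chr2:73911345-73911403 (− strand): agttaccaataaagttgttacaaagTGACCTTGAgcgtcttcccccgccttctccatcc

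In complex II, all 4 subunits had higher knockout means, by 0.02 to 0.12 on the log2 scale, with overlapping groups. Sdhb carries the iron-sulfur clusters that pass electrons on from the flavin. Its levels were 10.98, 11.15 and 10.90 in knockout muscle, against 10.54, 11.12 and 11.02 in control muscle (log2 fold change 0.12, SE 0.16; limma, adjusted p = 0.916). Sdhd, a membrane anchor, had 10.84, 10.90 and 10.67 in knockout muscle, against 10.35, 10.96 and 10.76 in control muscle (log2 fold change 0.11). In both genes control 1 lay below all other arrays and control 2 lay within 0.1 of the highest knockout. Sdha, the flavoprotein that oxidises succinate, had 12.59, 12.56 and 12.57 in knockout muscle, against 12.33, 12.59 and 12.52 in control muscle. The knockout values of Sdha lay between controls 3 and 2, and its difference was 0.09 with all arrays and 0.02 without control 1. Sdhc, the other anchor, differed by 0.02.

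In complex III, the 8 coding subunits differed by 0.01 to 0.17, all with higher knockout means. Uqcrh, the acidic hinge subunit that helps cytochrome c bind, had 9.90, 9.99 and 9.73 in knockout muscle, against 9.57, 9.82 and 9.71 in control muscle (log2 fold change 0.17, SE 0.11; limma, adjusted p = 0.780). Its groups overlapped through knockout 3. Uqcr11, a small accessory subunit, had 7.93, 8.29 and 8.07 in knockout muscle, against 7.75, 8.16 and 7.96 in control muscle (log2 fold change 0.14). Uqcrb, which helps form the ubiquinone site, had 12.94, 12.97 and 12.85 in knockout muscle, against 12.63, 12.87 and 12.86 in control muscle (log2 fold change 0.14). In both, control 1 was lowest and the other 5 arrays were intermixed. The iron-sulfur (Rieske) protein Uqcrfs1 differed by 0.13, Uqcrq by 0.10 and the core proteins Uqcrc2 and Uqcrc1 by 0.09 and 0.05. Cyc1, cytochrome c1, differed by 0.01, with the widest control spread of the 8 (SD 0.42, n = 3), and by −0.22 without control 1. The pseudogene Uqcrh-ps1 differed by −0.05.

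Complex IV holds most of the tissue-specific forms, and its 17 genes ran from −0.19 (Cox8c) to 0.24 (Cox7b2), both below background. Among those above it, Cox5b, a subunit on the matrix side, had 11.73, 11.93 and 11.58 in knockout muscle, against 11.21, 11.78 and 11.56 in control muscle (log2 fold change 0.23, SE 0.16; limma, adjusted p = 0.800). Cox7b, a small membrane subunit, had 10.69, 10.59 and 10.37 in knockout muscle, against 10.20, 10.61 and 10.25 in control muscle (log2 fold change 0.20). Both sets of values overlapped, with control 1 lowest and control 2 among the knockouts. A further probe set of Cox5b, at 5.32 in knockout and 5.46 in control muscle, had a log2 fold change of −0.14, and a dimmer one of Cox7b had 0.02. Averaged over the probe sets of each gene, the log2 fold change was 0.04 for Cox5b and 0.11 for Cox7b. The values of Cox7b2 were 3.26, 2.84 and 2.76 in knockout muscle and 2.69, 2.77 and 2.70 in control muscle, far below background. Cox7c had a log2 fold change of 0.19, Cox5a, which sits beside Cox5b, 0.10, and Cox7a2l, which joins complexes III and IV into supercomplexes, 0.05.

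In no pair of muscle and common forms of complex IV did the difference within an array separate the genotypes. Cox7a1, the muscle form of subunit VIIa, had 12.24, 12.30 and 12.04 in knockout muscle, against 11.60, 12.31 and 12.07 in control muscle (log2 fold change 0.20, and −0.0005 without control 1). Cox7a2, its common partner, had 9.96, 9.95 and 9.72 in knockout muscle, against 9.44, 10.01 and 9.93 in control muscle (0.08). Control 1 alone separated from the other arrays in both. Within an array, Cox7a1 exceeded Cox7a2 by 2.31 ± 0.03 in knockout and 2.20 ± 0.09 in control muscle (SD, n = 3), with overlapping groups.

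Cox6a2, the muscle form of subunit VIa, went the other way on control 1. Its levels were 13.10, 13.00 and 13.16 in knockout muscle, against 13.31, 13.18 and 13.05 in control muscle (log2 fold change −0.09, SE 0.11; limma, adjusted p = 0.890). Its common partner Cox6a1 had 10.70, 10.77 and 10.68 in knockout muscle, against 10.55, 10.94 and 10.77 in control muscle (−0.04). Control 1 was thus the highest array for the muscle form and the lowest for the common form. The difference within an array was 2.41, 2.24 and 2.48 in knockouts, against 2.76, 2.24 and 2.28 in controls, so that control 1 stood apart and the other 5 arrays did not separate by genotype. Levels above 13 lie near the top of the scale, where the highest value of an array was 14.31 to 14.34 and differences can be compressed.

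Cox8b, a muscle form of subunit VIII, had 12.04, 12.06 and 11.97 in knockout muscle, against 11.88, 12.04 and 11.86 in control muscle (log2 fold change 0.10). Cox8a, the common form, had 9.37, 9.28 and 9.24 in knockout muscle, against 9.18, 9.48 and 9.18 in control muscle (0.02). Cox8b exceeded Cox8a by 2.73 ± 0.06 in knockout and 2.65 ± 0.08 in control muscle (SD, n = 3), which overlapped. Cox4i2, the form of subunit IV known from lung and from low oxygen, was the only complex IV gene whose groups did not overlap, at 6.25, 6.34 and 6.32 in knockout muscle, against 6.46, 6.53 and 6.40 in control muscle. It did not pass the test (log2 fold change −0.16, SE 0.09; limma, adjusted p = 0.750). Its common partner Cox4i1 had 10.75, 10.97 and 10.83 in knockout muscle, against 10.55, 11.06 and 10.82 in control muscle (0.04). For subunit VIb, Cox6b1 had 11.10, 11.10 and 10.84 in knockout muscle, against 10.65, 11.07 and 10.91 in control muscle (0.14). Its testis form Cox6b2 had 5.02, 5.33 and 5.38 in knockout muscle, against 5.17, 5.18 and 5.31 in control muscle (0.02).

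**Figure D5:**
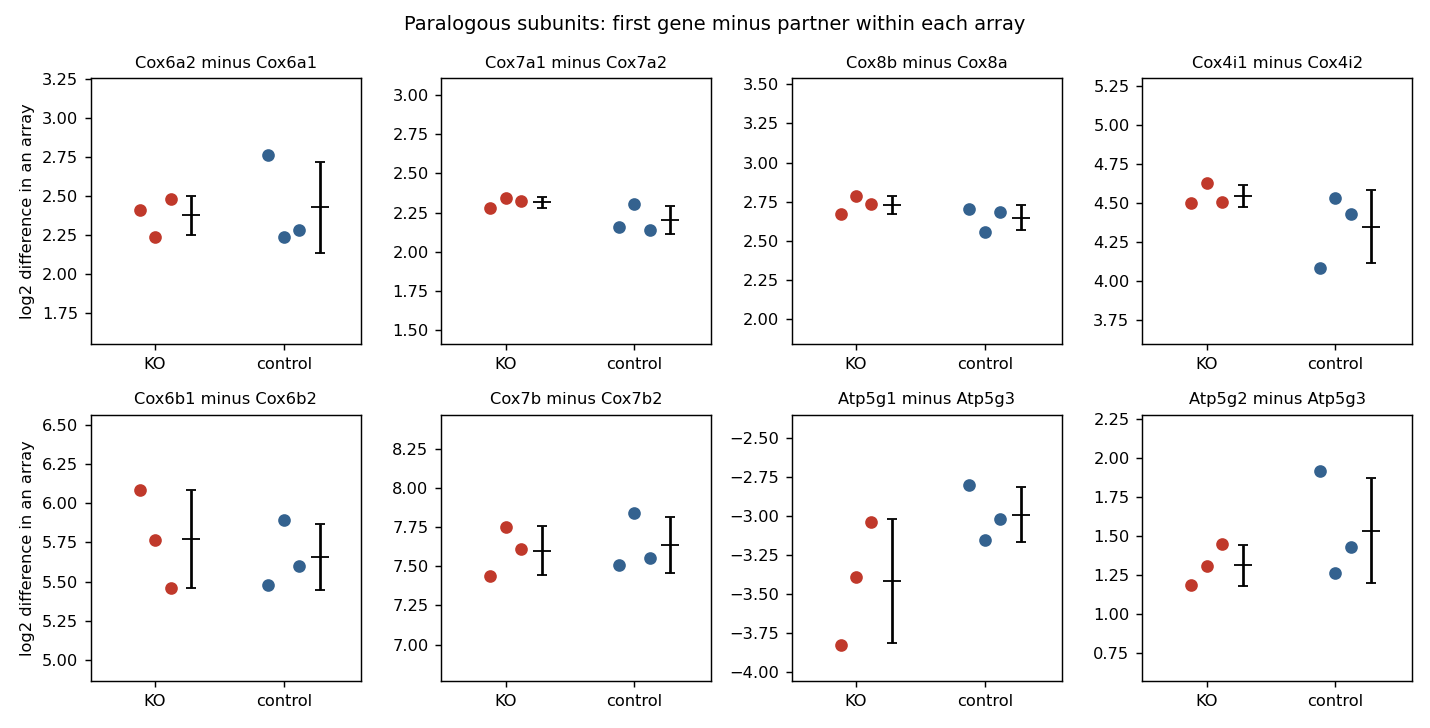
Log2 difference between paralogous subunits within each array (first gene minus partner), for knockout and control mice, with the mean and SD (n = 3) beside the points. Groups overlap in all 8 pairs, and the panels share a span but not a zero, since the offset between 2 probe sets has no meaning of its own.

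In complex V, 15 of 18 genes had higher knockout means. In the catalytic head, values were 0.14 (Atp5b) and 0.07 (Atp5a1). In the central stalk they were 0.12 (Atp5e), 0.08 (Atp5c1) and −0.08 (Atp5d). Atp5b, the beta subunit that makes ATP, was the only subunit of the 4 complexes whose knockout values all lay above the controls, and it is named for that reason after its values were seen. It had 13.26, 13.25 and 13.23 in knockout muscle, against 13.00, 13.17 and 13.15 in control muscle, without passing the test (log2 fold change 0.14, SE 0.09; limma, adjusted p = 0.792). Its levels also lie near the top of the scale.

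The peripheral stalk, which holds the head still, was represented by Atp5h (0.21), Atp5j (0.15), Atp5pb (0.11) and Atp5o (0.05). Atp5h had 12.31, 12.34 and 12.17 in knockout muscle, against 11.82, 12.22 and 12.17 in control muscle (SE 0.13; limma, adjusted p = 0.765), with control 1 below the other arrays and knockout 3 level with controls 2 and 3. A dimmer probe set of Atp5h had 7.15, 7.33 and 7.16 in knockout muscle, against 7.31, 6.96 and 6.99 in control muscle (log2 fold change 0.12). There control 1 was the highest control. The membrane subunits Atp5mpl, Atp5l, Atp5k and Atp5md differed by 0.16, 0.16, 0.15 and 0.09. Atp5j2, another of them, had the largest difference of all 48 genes, at 0.32, from 5.84, 5.82 and 5.48 in knockout muscle and 5.82, 5.07 and 5.29 in control muscle. Both its group means lay below background and control 1 was level with knockouts 1 and 2, so no fold is given.

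The rotating ring of ATP synthase is built from subunit c, which 3 genes encode with the same mature protein. Atp5g3 had 10.63, 10.52 and 10.34 in knockout muscle, against 9.96, 10.43 and 10.34 in control muscle (log2 fold change 0.25, SE 0.14; limma, adjusted p = 0.741). Atp5g1 had 6.81, 7.13 and 7.30 in knockout muscle, against 7.16, 7.28 and 7.33 in control muscle (−0.18, SE 0.14). Atp5g2 had 11.82, 11.82 and 11.78 in knockout muscle, against 11.88, 11.69 and 11.77 in control muscle (0.03). Knockout 1 had the highest Atp5g3 and the lowest Atp5g1 of the arrays. Within an array, Atp5g1 minus Atp5g3 was −3.83, −3.39 and −3.04 in knockouts, against −2.81, −3.15 and −3.02 in controls, so that knockouts 1 and 2 lay below all controls and knockout 3 among them. Atp5g2 minus Atp5g3 was 1.18, 1.30 and 1.45 in knockouts, against 1.91, 1.26 and 1.43 in controls, with control 1 alone apart.

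Assembly factors and partner proteins of these complexes gave 0 calls over all genes either. Of 35 assembly factors measured of 39 listed, 20 were higher and 15 lower in knockout muscle, with a median log2 fold change of 0.04, and 2 had an unadjusted p under 0.05, where 8.04% of all genes did. Groups did not overlap in 5 of the 35, 4 higher and 1 lower, where 13.4% of all genes did so. Cox20, a chaperone of the mitochondrially encoded subunit COX2, had 10.20, 9.98 and 9.79 in knockout muscle, against 9.62, 9.64 and 9.74 in control muscle (log2 fold change 0.32, SE 0.12; limma, adjusted p = 0.538). Coa7, another complex IV assembly factor, had 7.02, 6.95 and 6.78 in knockout muscle, against 7.12, 7.25 and 7.17 in control muscle (−0.26; limma, adjusted p = 0.560). The groups did not overlap in these genes, nor in Higd1a (0.20), Cox17 (0.13) and Cox19 (0.07), which are named after their values were seen. Sdhaf2, which helps attach flavin to Sdha, and Pet100, a complex IV factor, had differences of 0.26 and 0.22 with overlapping groups.

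Atpif1, the protein that inhibits ATP synthase when it runs in reverse, had 8.61, 8.52 and 8.51 in knockout muscle, against 8.28, 8.25 and 8.28 in control muscle. All knockouts lay above all controls and control 1 did not stand apart, yet the difference did not pass over all genes (log2 fold change 0.28, SE 0.09; limma, adjusted p = 0.453). Cycs, cytochrome c, had 12.83, 12.80 and 12.50 in knockout muscle, against 12.23, 12.70 and 12.72 in control muscle (0.16). Control 1 was its lowest array, and Ndufa4, a subunit found in complex IV, had a log2 fold change of 0.08. Ppargc1a, a coactivator of mitochondrial genes, had 10.81, 11.08 and 11.20 in knockout muscle, against 10.23, 10.75 and 10.31 in control muscle (log2 fold change 0.59, SE 0.16; limma, adjusted p = 0.351). All knockouts lay above all controls, and control 1 was the lowest of the 6 arrays. Whether Ppargc1a bears on the subunit levels was not tested.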

How the data were processed

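RNA from gastrocnemius muscle of 6 mice was hybridised to Affymetrix arrays, 1 per mouse, per the labels. The authors' deposited values are log2 probe set summaries, and RMA, oligo and limma are named in the submitters' processing notes. RMA subtracts background and makes the arrays' distributions alike, which can compress differences of dim transcripts. Scanner files and scan dates were not used here. Nothing says more of how the mice were sampled, so p-values measure the spread between these arrays.

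Of 41345 probe sets, 23521 had 1 symbol in the platform annotation held by GEO, whose names may be out of date. A gene was represented by its probe set with the highest mean over the 6 arrays, which left 22180 genes, and all 48 subunits were found in RefSeq's gene table under the same symbol. Of the subunits, 6 had several probe sets, and processed copies of these genes elsewhere in the genome may share probes with them. Whether the probe sets chosen for them, such as those of Cox5b and Atp5h, measure such copies was not tested. Cox6c and Uqcr10 shared their probe sets with predicted genes and are not among the 48. All genes were fitted with limma 3.58.1 in R 4.3.3 (lmFit, eBayes, group means, two-sided, Benjamini-Hochberg over all genes, threshold 0.05, no filter on dim genes). The test was tried on simulated data in which genes varied independently, unlike the subunits here. Figures were drawn with matplotlib 3.10.9. The subunits, lists, isoform pairs and the rule for named genes were chosen with earlier results of these data known. The rule gave array values for the 3 largest differences in each complex, subunits with an unadjusted p under 0.05 and the isoform pairs, and outside the subunits for Map3k7, Ppargc1a and the largest differences among assembly factors and partners. Precision is limited by there being 3 arrays per group.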

Additional observations from a re-analysis of the deposited data

How the results depend on the processing

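The count of 0 called subunits (limma) held in all 15 alternatives, with lowest adjusted p between 0.497 (without control 1) and 0.868 (every probe set tested). The median over the 48 subunits lay between 0.085 and 0.113 in the 9 alternatives that kept all arrays, and between 0.008 and 0.17 with 1 array left out. The medians with 1 array left out ran from −0.06 to 0.19 for complex II, from −0.01 to 0.18 for complex III, from −0.0005 to 0.16 for complex IV and from 0.04 to 0.17 for complex V. The lowest came without control 1 and the highest without control 2. The sign of the median thus turned in complexes II, III and IV without control 1. Quantile normalization and median centring changed the sign of 0 subunits.

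The count of all called genes was 21. It was 6 with every probe set tested, 53 when dim genes under the median level were left out, 45 when those under the receptor-gene level were, and 36 when limma's prior was made robust and allowed to follow intensity. The filters keep 11090 and 12601 genes, 41 of the 48 subunits among them. With 1 array left out the count ran from 2 to 11. With the replicate number as a block it was 17, with 0 of 48 subunits called. Deviations of same-numbered mice correlated at 0.079, 0.212 and −0.072, and knockout 3 correlated best with control 1 (0.138). The value of 0.212, for knockout 2 and control 2, was the highest of all pairs. With 3 mice per group, these values cannot tell whether same-numbered mice share a litter or a batch. The cause of the other shifts was not tested.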

Other observations

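The brighter probe set shared by Cox6c, a complex IV subunit, and the predicted gene Gm6265 had means of 12.36 in knockout and 12.22 in control muscle, a log2 difference of 0.15. The probe set shared by Uqcr10 of complex III and Gm6293 had means of 8.65 in knockout and 8.73 in control muscle, a difference of −0.07 (limma with every probe set tested, adjusted p = 0.883 and 0.967). The probe sets of Atp5e disagreed in sign: the dimmer one had a log2 fold change of −0.05 and the brighter one 0.12. Both probe sets of Atp5d had lower knockout means, with log2 fold changes of −0.08 and −0.26.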
